A study of Mus musculus with 8 samples.

Results

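Cluster 12 of the inhibitory neurons is a set of 559 nuclei among the 29425 nuclei of a single nucleus RNA sequencing (snRNAseq) survey of the adult mouse hippocampus. Its members are the nuclei to which the authors' deposited annotation gives that cluster, 109 and 256 nuclei in mutant replicates 1 and 2 and 81 and 113 nuclei in control replicates 1 and 2. Each sample was both hippocampi of 1 male mouse at 12 weeks of age. Mutant mice were Gfap-Cre;Wls fl/- and control mice were Gfap-Cre;Wls fl/+, with 2 mice per genotype, so that every mouse carried the Cre transgene and 1 conditional (fl) allele of Wls, and the genotypes differed in whether the other allele was null or wild type. Wls codes for Wntless, a chaperone that cells need to secrete Wnt proteins, and the question of the study was what its loss from the cortical progenitors that express Gfap-Cre did to the cells of the hippocampus. Hippocampal tissue of the same genotypes was also measured by bulk RNAseq, in 2 libraries per genotype. The title codes of replicate 2 of each genotype are the same in both assays, and whether they stand for the same mice is not stated. Cre was under Gfap control, and every cell of the mutant also carried the null allele. Whether cells of cluster 12 descend from cells with Cre activity was not tested.

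Inhibitory neurons of the hippocampus make GABA from glutamate with the decarboxylases coded by Gad1 and Gad2 and pack it into vesicles with Slc32a1. They are born outside the cortex, in the medial ganglionic eminence, whose progeny express Lhx6, or in the caudal ganglionic eminence, whose progeny typically express Adarb2 and Nr2f2, and migrate into the hippocampus. The neurogliaform family of interneurons is known for Lamp5, Reln and Npy, and the combination of Lamp5 with Lhx6 and the neuronal nitric oxide synthase gene Nos1 is known from Ivy cells and the related neurogliaform cells of medial eminence origin. ErbB4, the receptor for neuregulins, is carried by many cortical interneurons.

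The 4 samples held 5304 to 10460 nuclei, and cluster 12 held 480730 to 2080081 transcript counts by unique molecular identifier (UMIs) per sample. The median cluster 12 nucleus had 4320 and 7338.5 UMIs in mutant replicates 1 and 2 and 6661 and 9911 in control replicates 1 and 2, so nuclei of mutant replicate 1 were the shallowest and those of control replicate 2 the deepest. Of all nuclei, 87 barcodes occurred in more than 1 library, and 6 cluster 12 nuclei carried such a barcode. Xist was at 0 to 2 UMIs per sample in cluster 12 and Ddx3y at 21 to 68 UMIs, as the labelled sex requires. Levels below are UMIs per 1000000 UMIs of the cluster in a sample (CPM), given in the order mutant replicate 1, mutant replicate 2, control replicate 1 and control replicate 2. They compare one gene between cells and samples and not one gene with another, since transcript length was not taken into account.

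The nuclei showed the defining genes of their label, which the paper had also used to identify its inhibitory clusters. Gad1 was at 476, 441, 557 and 504 CPM in cluster 12 and Gad2 at 705, 660, 669 and 647 CPM, and the control level of Gad1, 521 CPM, compared with 21.4 CPM in oligodendrocytes. Erbb4 was at 12595, 10265, 11875 and 10107 CPM, above its level in cluster 5 and in cluster 18, the other inhibitory clusters used for comparison, in every sample. Erbb4 by itself did not set inhibitory nuclei apart, since it was detected in a median of 95.5% of oligodendrocytes, where its control level was 2262 CPM. At least 1 UMI of Gad1 or Gad2 was present in 93.6 to 99.2% of the nuclei. The summed level of the 11 GABA neuron markers was higher in the control nuclei of cluster 12, at 15866 CPM, than in any other of the 21 deposited types. From this list the paper used Gad1, Gad2, Erbb4, Kcnip1, Rbms3 and Kcnmb2 to identify its inhibitory clusters. Erbb4 also made up most of the sum, and the sum is therefore no test of the label. Summed markers of glia and choroid plexus were low against the cells they define: 22.9, 45.2, 51.4 and 102 CPM for the 5 astrocyte markers against 4841 CPM in control astrocytes, 56.2 to 87.4 CPM for the 5 oligodendrocyte markers against 17016 CPM in oligodendrocytes, and 2.38 to 53.4 CPM for the 4 choroid plexus markers against 87018 CPM in choroid plexus nuclei. Other lists were less far apart. The 8 glutamatergic neuron markers summed to 345 to 515 CPM against 2533 CPM in CA1 cells, the 3 markers of oligodendrocyte precursors to 180 to 252 against 2472 CPM, the 7 Cajal-Retzius markers, which include Reln and Ndnf, to 732 to 823 CPM against 3058 CPM in cluster 18, and the 7 striatal neuron markers to 969 to 1575 CPM against 1658 CPM in the highest other type. None of the 5 astrocyte markers was at 0 in all samples, and 2 of the 5 meningeal markers were.

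The genes that led cluster 12 named a receptor for substance P, a lineage factor and a potassium channel subunit. They were ranked by the ratio of the level in control cluster 12 nuclei to the highest level in any other deposited type, among 3649 genes of at least 50 CPM. Of those genes, 152 were at their highest in cluster 12, which is a description and carries no test, because the clustering itself used the expression of these nuclei. First came Tacr1, the gene for the NK1 receptor of substance P (chr6:82402334-82560104, GRCm38), with a ratio of 5.28 and levels of 133, 120, 122 and 107 CPM in cluster 12. Tacr1 was at 6.44 to 11.8 CPM in cluster 5 and 0 to 28.1 CPM in cluster 18, without overlap with cluster 12 in any sample. Second was Lhx6, the homeobox gene of medial eminence interneurons (chr2:36081953-36105408), with a ratio of 3.75 and levels of 116, 105, 68.6 and 96.1 CPM. Lhx6 was at 23.3 to 36.3 CPM in cluster 5 and at 0 to 18.7 CPM in cluster 18.

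Kcns3, a modulatory potassium channel subunit, followed with levels of 131, 134, 146 and 133 CPM. Tenm1, a teneurin adhesion receptor gene on the X chromosome, had levels of 1899 to 2241 CPM, and Gabrg3, a gamma subunit gene of the GABA-A receptor, had a ratio of 2.65 and levels of 4349 to 5282 CPM. The other named leading genes were the orphan receptor gene Gpr149, the ectodysplasin adaptor Edaradd, the protocadherin Dchs2, Tex22 and the noncoding Gm34623 with ratios between 2.49 and 3.01. Tex22 was uneven among the mice, at 14.6, 30.3, 13.7 and 78.6 CPM. Nos1 and the hyaluronan link protein gene Hapln1 were also among the 30 leading genes, with ratios of 1.74 and 1.71. The next highest type was cluster 18 for 16 of the 30 genes and cluster 5 for 5 of them. Of these same 30 genes, 28 were also highest in cluster 12 in the mutant sums, and Moxd1 (ratio 0.545) and Vps45 (0.896) were not. Mutant and control nuclei were clustered together, so this agreement carries no test.

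**Figure D1:**
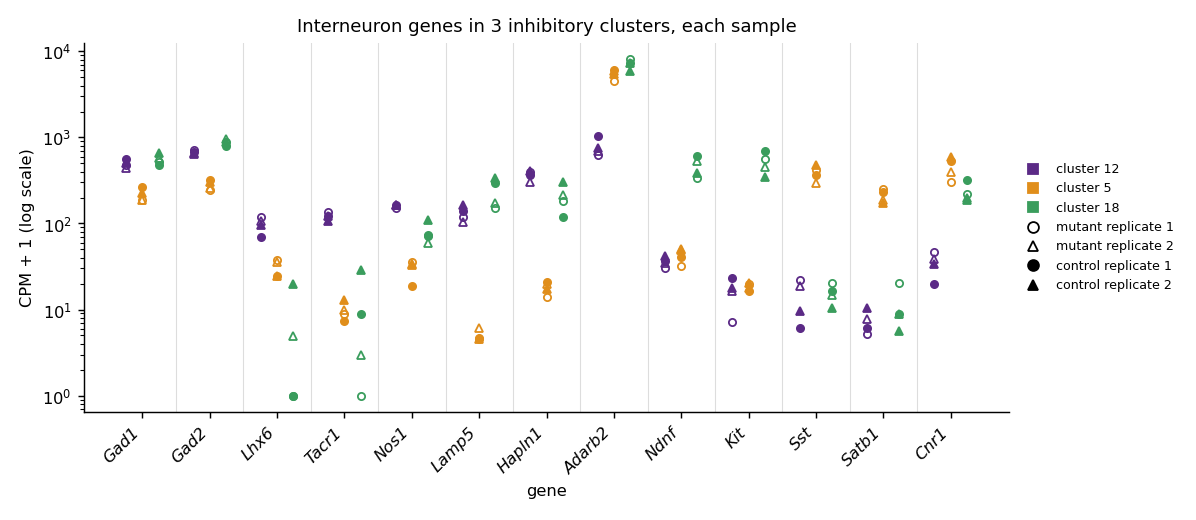
Levels of 13 interneuron genes (CPM + 1, log axis) in inhibitory clusters 12, 5 and 18, with 1 point per sample (filled, control; open, mutant; circle, replicate 1; triangle, replicate 2). Lhx6 and Tacr1 are highest in cluster 12 in every sample, Lamp5 and Hapln1 set clusters 12 and 18 above cluster 5, and Sst, Satb1 and Cnr1 are at 45.8 CPM or below in cluster 12.

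Against cluster 5, the largest inhibitory cluster with 2409 nuclei, 6 of 8 neurogliaform markers and 4 of 4 chandelier cell markers were higher in the control nuclei of cluster 12, and none of 7 markers of the caudal eminence lineage was. The chandelier list summed to 2689 CPM in cluster 12 and 335 CPM in cluster 5, most of it from the growth factor homologue gene Fgf13 (2571 and 304 CPM). The parvalbumin list summed to 1168 CPM in cluster 12 and 1991 CPM in cluster 5, and the Cck basket cell list to 1436 and 2096 CPM. Lamp5, a vesicular membrane protein gene, was at 119, 104, 137 and 161 CPM in cluster 12 and at 3.59 to 5.06 CPM in cluster 5, and its control ratio of 42.1 was the highest between these clusters. Hapln1 was at 395, 306, 365 and 408 CPM against 12.9 to 20.0 CPM. Next came Mctp2 (ratio 18.7), the proteoglycan gene Vcan (18.1), Crispld1 (15.9), the calcium channel auxiliary subunit gene Cacna2d1 (15.2), the vesicle protein gene Sv2c (12.1) and the phosphodiesterase gene Pde11a (11.9). In the opposite direction, somatostatin (Sst) was at 20.8, 17.8, 5.14 and 8.74 CPM in cluster 12 and at 296 to 477 CPM in cluster 5. Syt6, Cdh13, Stk32a, Satb1, Gm29514, Brinp3 and the cannabinoid receptor gene Cnr1 completed the 8 lowest ratios, all at most 0.0507. Satb1, a chromatin organizer of medial eminence interneurons that make somatostatin or parvalbumin, was at 4.16 to 9.53 CPM in cluster 12 and at 173 to 249 CPM in cluster 5.

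Against cluster 18, a smaller cluster of 174 nuclei, the contrast included genes of developmental lineage and neurogliaform markers. In control nuclei, 6 of 6 medial eminence markers and none of 7 caudal eminence markers were higher in cluster 12. Of the 8 neurogliaform markers 2 were, and that list summed to 1587 CPM in cluster 12 and 4649 CPM in cluster 18. Lamp5 was at 149 to 332 CPM in cluster 18 and Reln, which codes for the secreted protein Reelin, at 2111 to 3333 CPM there and 664, 666, 753 and 677 CPM in cluster 12. Adarb2 was at 624, 685, 1029 and 755 CPM in cluster 12 and at 5948 to 8046 CPM in cluster 18. Ndnf, a secreted neurotrophic factor gene, was at 29.1 to 40.5 CPM in cluster 12 and 332 to 614 CPM in cluster 18, and the receptor kinase gene Kit was at 6.24 to 22.3 CPM against 342 to 699 CPM. The relaxin receptor gene Rxfp1, Ntn1, Aspa, Sdk2, Gm30835 and Gm4128 were likewise among the 8 lowest ratios. Higher in cluster 12 were Plcxd3, Moxd1, Sox6, Eya4, Scn9a, Col5a2 and Cntnap5b, with ratios of 10.0 to 32.6, and Nek7, which had no UMI in the control nuclei of cluster 18. Sox6, which acts with Lhx6 in medial eminence interneurons, was at 79.0, 85.6, 77.2 and 96.9 CPM in cluster 12. It was not particular to cluster 12, since a median of 30.8% of nuclei had a Sox6 UMI there and 40.7% in cluster 5. Against cluster 5, 4 of the 6 medial eminence markers were higher in control nuclei of cluster 12. That list summed to 3433 CPM in cluster 12 and was highest in oligodendrocyte precursors, at 4318 CPM. All 16 genes named against cluster 5 and all 16 against cluster 18 kept their order in each of the 4 samples. Their choice on the control sums and the clustering on expression favour such agreement, so it carries no test. Cluster 18 held 23 to 75 nuclei per sample, which limits the precision of its low levels.

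Single nuclei were read for the same genes. A UMI of Nos1 was found in 43.1, 58.2, 56.8 and 65.5% of cluster 12 nuclei, with exact (Clopper-Pearson) 95% intervals of 33.7 to 53.0, 51.9 to 64.3, 45.3 to 67.8 and 56.0 to 74.2%. Lhx6 was detected in 34.9, 58.6, 35.8 and 60.2% of nuclei, Lamp5 in 36.7, 51.6, 53.1 and 69.9%, and neuropeptide Y (Npy) in 22.9, 26.6, 32.1 and 46.0%. The shares were lowest in the shallowest library and highest in the deepest for Lhx6, Lamp5, Nos1 and Npy. These shares compare with medians over the samples of 0.0972% for Lhx6, 0.936% for Lamp5, 0.800% for Nos1 and 2.11% for Npy in oligodendrocytes, which should lack these genes and whose median depth was 1727 to 2339 UMIs. Sst was detected in a median of 8.88% of cluster 12 nuclei and 6.82% of oligodendrocytes, and Vip in 1.63% and 1.73%. These medians lay near those of oligodendrocytes, although Vip reached 7.96% in control replicate 2. The source of these UMIs was not tested. With every nucleus thinned to 1500 UMIs, the median shares in cluster 12 were 14.4% for Lhx6, 18.6% for Lamp5, 21.0% for Nos1, 8.57% for Npy and 3.14% for Sst, and those of the oligodendrocytes 0.0972, 0.793, 0.604, 1.47 and 5.02%. Intervals cover counting error only.

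**Figure D2:**
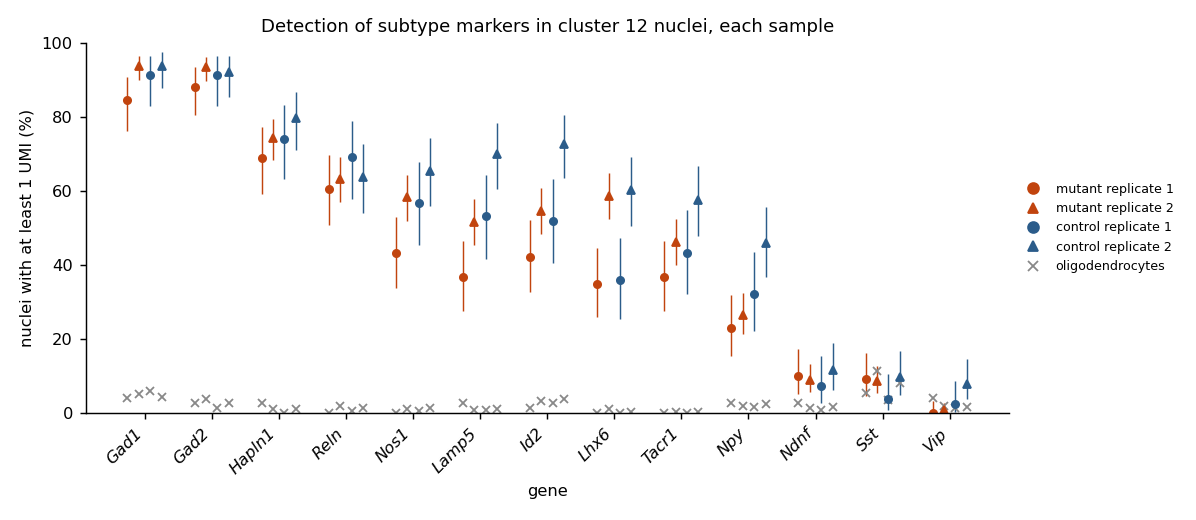
Share of cluster 12 nuclei with at least 1 UMI of each of 13 genes, by sample (colour, genotype; shape, replicate), with exact 95% binomial intervals, and the same share in oligodendrocytes (grey crosses). Lamp5, Nos1 and Lhx6 stand far above the oligodendrocyte share in all 4 samples, whereas Sst and Vip lie near it in most samples.

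Detection of pairs of subtype genes was compared within nuclei. Among the nuclei with a Lhx6 UMI, Lamp5 was found in 36.8, 51.3, 55.2 and 67.6%, beside 36.6, 51.9, 51.9 and 73.3% of the nuclei without one. Nos1 was found in 57.5, 72.0, 60.5 and 75.9% of the nuclei with a Lamp5 UMI and in 34.8, 43.5, 52.6 and 41.2% of the rest. After thinning to 1500 UMIs, Lamp5 was in 20.0, 22.4, 40.0 and 23.5% of the nuclei with Lhx6 and in 17.02, 11.6, 16.9 and 22.9% of the rest, and the Nos1 shares were 36.8, 25.7, 25.0 and 42.3% against 17.8, 19.0, 20.0 and 20.7%. Thinned Nos1 shares were 6.67, 18.4, 20.0 and 29.4% with Lhx6 and 23.4, 20.3, 21.1 and 25.0% without it. Those of Adarb2, a caudal eminence marker, were 53.3, 30.6, 40.0 and 35.3% with Lhx6 and 24.5, 23.7, 36.6 and 27.1% without it. The thinned groups held 10 to 49 nuclei with Lhx6 and 16 to 35 with Lamp5, and at this depth the values describe the nuclei without a test. Nuclei with more UMIs show more of every gene, so the shares at full depth share the depth of the nucleus.

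The receptors, channels and adhesion genes of cluster 12 were described from lists of genes with a known role. Among the 14 genes for GABA-A receptor subunits and their anchors, 4 were at their highest level of any deposited type in control cluster 12 nuclei, among them Gabrg3, Gabrb2 and Gabrd. Gabrb2, a common beta subunit gene, was at 828, 933, 938 and 894 CPM against 308 to 358 CPM in cluster 5. Gabrd, the delta subunit gene of extrasynaptic receptors, was at 31.2, 49.0, 85.7 and 92.1 CPM. Of the 8 neuregulin and ErbB genes, Erbb4 and Nrg2 were highest in cluster 12, with Nrg2 at 362, 320, 410 and 307 CPM, whereas Nrg1 was at 277, 371, 132 and 202 CPM and below its level in cluster 18 in each sample.

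Of the 19 neurexins and partners, 5 were highest in cluster 12 (Lrrtm4, Nxph1, Cntnap4, Cntnap5c and Nxph2), and 13 were above cluster 5. Nrxn3 was the opposite case, at 2598, 2826, 2397 and 2488 CPM against 8894 to 10112 CPM in cluster 5. Gria1 and Grin2d were highest among the 17 glutamate receptor genes, and Kcnmb2 and Kcnc1 among the 21 potassium channel genes, whereas Kcnc2, a fast delayed rectifier gene of fast-spiking cells, was at 500 to 669 CPM against 1354 to 1993 CPM in cluster 5. None of the 19 modulatory receptor genes, 13 neuropeptide genes, 6 calcium-binding protein genes, 18 Wnt ligand genes or 14 beta-catenin targets and effectors was at its highest in cluster 12. Of the Wnt ligand genes none reached 50 CPM in the control nuclei, and of the beta-catenin genes Znrf3 and Lrp6 did.

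Cluster 12 made up 2.06% (95% interval 1.69 to 2.47) and 2.45% (2.16 to 2.76) of all nuclei of mutant replicates 1 and 2, and 1.25% (0.996 to 1.55) and 1.57% (1.297 to 1.89) of those of control replicates 1 and 2. The mutant shares lay above the control shares, with a log2 fold change of 0.67 (SE 0.52), which did not pass edgeR's quasi-likelihood test on numbers of nuclei over the 21 types (adjusted p = 0.50). The mutant samples held 90 and 463 dentate granule cell nuclei against 2336 and 2007 in the controls. These nuclei are part of the total, so their number affects the share of every other type. Other types differed in number too, such as choroid plexus with 184 mutant and 9 control nuclei, and their part was not tested. Of the nuclei that were not granule cells, cluster 12 made up 2.09 and 2.56% in the mutants and 1.96 and 2.18% in the controls, which overlapped (edgeR log2 fold change 0.17, SE 0.54, adjusted p = 0.93). Of the nuclei of clusters 5, 12 and 18, it made up 13.3 and 19.6% in the mutants and 16.7 and 21.2% in the controls, and the direction was then the opposite (edgeR log2 fold change -0.20, SE 0.26, adjusted p = 0.73).

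**Figure D3:**
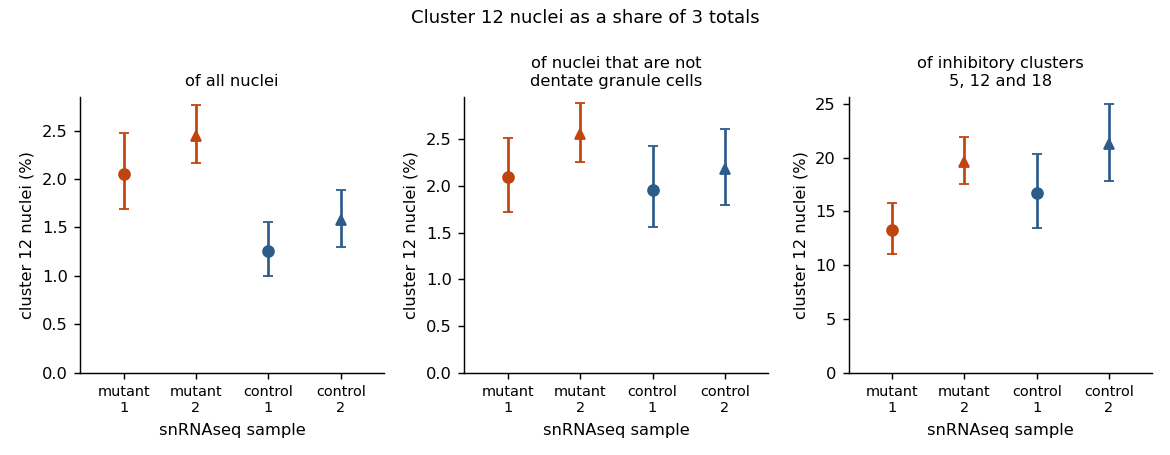
Cluster 12 nuclei as a percentage of all nuclei, of nuclei other than dentate granule cells and of the nuclei of inhibitory clusters 5, 12 and 18, for each sample with exact 95% binomial intervals. Only the first panel, in which granule cells are part of the total, keeps the mutant samples (2.06 and 2.45%) above the control samples (1.25 and 1.57%).

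The genotypes were compared in cluster 12 on the UMIs summed per mouse. Of 9523 genes tested, 3 were higher and 4 lower in the mutant at more than 2-fold and an FDR below 0.05 in edgeR (quasi-likelihood F test, Benjamini-Hochberg FDR). That was 0.0735% of the genes tested, 0.0315% for higher and 0.042% for lower. The higher genes were Htr2c, A330015K06Rik and Gm45904, and the lower genes were Wls, Nr4a3, Cst3 and Ubb. The unadjusted p was below 0.05 for 394 genes higher (4.14%) and 445 genes lower (4.67%). For 39.2% of all genes tested the levels of the genotypes did not overlap. Of the 7 genes, Wls alone passed under every other way of counting or testing the nuclei that was tried. Without mutant replicate 2 the calls of Htr2c, Nr4a3, Cst3 and Ubb were lost, and without mutant replicate 1 that of Gm45904. Leaving out mutant replicate 1, mutant replicate 2, control replicate 1 or control replicate 2 gave 43, 5, 4 or 99 genes higher and 40, 16, 23 or 30 lower. Without the nuclei called doublets, 7 and 6 of them from the controls and 0 and 15 from the mutants, no gene was called higher and only Wls lower by edgeR, with log2 fold changes of the other genes of 2.12 for Htr2c, 1.25 for A330015K06Rik, 1.20 for Gm45904, -3.32 for Nr4a3, -1.20 for Cst3 and -1.30 for Ubb (FDR 0.13 to 0.16). The doublet caller marked 2 of 5304 nuclei of mutant replicate 1 and so did not work there. The unadjusted counts past 2-fold were then 99 higher and 117 lower.

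Wls (chr3:159839672-159938664) was at 14.6, 10.6, 82.3 and 81.8 CPM, from 7, 22, 48 and 103 UMIs. Both mutant samples lay below both controls, and the level was 6.85-fold lower in the mutant (log2 fold change -2.78, SE 0.30, FDR 5.5e-04). A Wls UMI was present in 5.50 and 7.42% of mutant nuclei and 40.7 and 46.0% of control nuclei, and the highest single nucleus held 6 UMIs. How the counted reads lie relative to the deleted stretch of the gene is not given in the sources used here, so a lower count does not measure the deletion itself. In cluster 5 Wls was at 18.9, 25.4, 59.3 and 65.1 CPM, which did not pass there (log2 fold change -1.43, SE 0.20, FDR 0.092), and in cluster 18 it was counted at 0, 1, 5 and 9 UMIs. The fall was not particular to cluster 12. Wls was at 0, 4.93, 76.2 and 88.7 CPM in oligodendrocytes and 2.87, 1.99, 51.0 and 38.8 CPM in astrocytes. In CA1 cells it was at 3.94, 4.89, 16.5 and 14.8 CPM. Granule cells did not show the fall (4.83, 5.55, 3.34 and 4.43 CPM). The difference was larger in cluster 12 than in cluster 5 by -1.46 on the log2 scale (SE 0.32, FDR 0.0025, edgeR interaction test), but that call was lost without mutant replicate 2 (-0.79, FDR 0.86) and without control replicate 2 (-1.52, FDR 0.075).

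Htr2c, the gene for the serotonin 2C receptor (chrX:146962513-147197277), was at 64.5, 87.5, 13.7 and 23.8 CPM, from 31, 182, 8 and 30 UMIs. Both mutant samples were above both controls, by a log2 fold change of 2.01 (SE 0.30, FDR 0.019). The call was lost with DESeq2 (adjusted p = 0.064), without mutant replicate 2 (FDR 0.059), without called doublets (FDR 0.13) and without nuclei of more than 1 astrocyte marker UMI (FDR 0.051), and the log2 fold change lay between 1.70 and 2.58 in these and all other settings. It was detected in 13.8, 19.5, 8.64 and 15.9% of cluster 12 nuclei. In cluster 5 Htr2c was at 90.9, 122, 117 and 117 CPM, with a log2 fold change that did not pass (-0.10, SE 0.17, FDR 0.88), and the difference between the clusters passed the interaction test (2.02, SE 0.26, FDR 1.1e-11) and did so in each alternative run. Htr2c is also known from the choroid plexus, whose nuclei numbered 184 in the mutant and 9 in the control samples. In nuclei labelled astrocytes it was at 31.5, 22.7, 8.94 and 7.76 CPM, in CA1 cells at 79.4, 57.8, 36.9 and 50.3 CPM and in granule cells at 12.1, 14.9, 9.14 and 9.65 CPM, with both mutants above both controls in each. The genotypes overlapped in oligodendrocytes (0, 21.0, 4.48 and 6.67 CPM) and in cluster 18 (38.5, 31.1, 7.77 and 60.8 CPM). The 4 choroid plexus markers summed to 6.24, 53.4, 20.6 and 2.38 CPM in cluster 12, overlapping between genotypes. Of these markers only Ttr had enough counts for the test, with a log2 fold change of 2.30 and an unadjusted p below 0.05, and their part in the Htr2c difference was not tested.

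The remaining genes called higher were both antisense transcripts by the GENCODE annotation. A330015K06Rik (chr3:65133060-65302685) was at 193, 223, 63.4 and 99.3 CPM (log2 fold change 1.36, SE 0.22, FDR 0.034) and Gm45904 (chr8:112880460-113004997) at 329, 221, 105 and 126 CPM (1.24, SE 0.22, FDR 0.043). The groups did not overlap for either gene. A330015K06Rik lies opposite Kcnab1, which was at 387, 404, 250 and 274 CPM (0.63, FDR 0.19), and Gm45904 lies opposite Cntnap4, at 1117, 1141, 871 and 908 CPM (0.39, FDR 0.44). Since the strand setting of the counting is not stated, reads of the partners cannot be told apart with certainty. A330015K06Rik was also above the controls in the mutant nuclei of cluster 5 (202, 181, 104 and 144 CPM), and of granule cells (215, 196, 97.9 and 114 CPM), and the genotypes overlapped in CA1 cells (221, 356, 190 and 290 CPM) and oligodendrocytes (222, 261, 193 and 268 CPM). Gm45904 was at 61.2, 72.9, 41.0 and 49.9 CPM in cluster 5, with both mutants above both controls. It was at most 7.24 CPM in granule cells, CA1 cells, oligodendrocytes and astrocytes. At these low levels both mutants were also above both controls in granule cells, CA1 cells (5.37, 4.58, 2.56 and 1.62 CPM) and astrocytes. The genotypes overlapped for Gm45904 in oligodendrocytes and in cluster 18 (19.3, 42.8, 15.5 and 23.4 CPM). In the next highest type, a cluster of excitatory neurons, its summed level was 112 CPM in mutant and 76.3 CPM in control nuclei.

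Among the lower genes, Nr4a3, an immediate early nuclear receptor gene (chr4:48045153-48086447), was at 8.32, 5.77, 46.3 and 31.0 CPM from 4, 12, 27 and 39 UMIs (log2 fold change -2.48, SE 0.42, FDR 0.040). Of the 39 UMIs in control replicate 2, 9 were in 1 nucleus. The genotypes overlapped for Nr4a3 in cluster 5 (13.2, 4.82, 17.6 and 10.4 CPM), cluster 18, granule cells, CA1 cells and oligodendrocytes. In astrocytes both mutants were below both controls (5.73, 5.57, 8.94 and 10.7 CPM). Cst3, which codes for the secreted protease inhibitor cystatin C, was at 70.7, 65.9, 177 and 175 CPM (-1.33, SE 0.21, FDR 0.023), and the polyubiquitin gene Ubb at 43.7, 48.1, 117 and 118 CPM (-1.28, SE 0.22, FDR 0.043). Cst3 and Ubb were also lower in both mutant samples than in both controls in cluster 5, oligodendrocytes, granule cells, CA1 cells and astrocytes: Ubb was at 45.9, 41.7, 139 and 141 CPM in granule cells, and Cst3 at 1799, 1711, 4734 and 3778 CPM in astrocytes. In cluster 18 the genotypes overlapped for Cst3 (139.7, 60.3, 100.99 and 187.2 CPM). In cluster 12 single nuclei held 24 of the 103 Cst3 UMIs of control replicate 1 and 36 of the 220 of control replicate 2, and 2 of 34 and 28 of 137 in the mutants. The astrocyte markers summed to 22.9, 45.2, 51.4 and 102 CPM there, and their part in the Cst3 difference was not tested. Neither difference was shown to be larger or smaller in cluster 12 than in cluster 5 (interaction FDR 0.97 for Ubb and 0.88 for Cst3). Ubb was the only gene called in cluster 5 (log2 fold change -1.55, FDR 0.033), where 0.00713% of the 14024 genes tested were called.

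**Figure D4:**
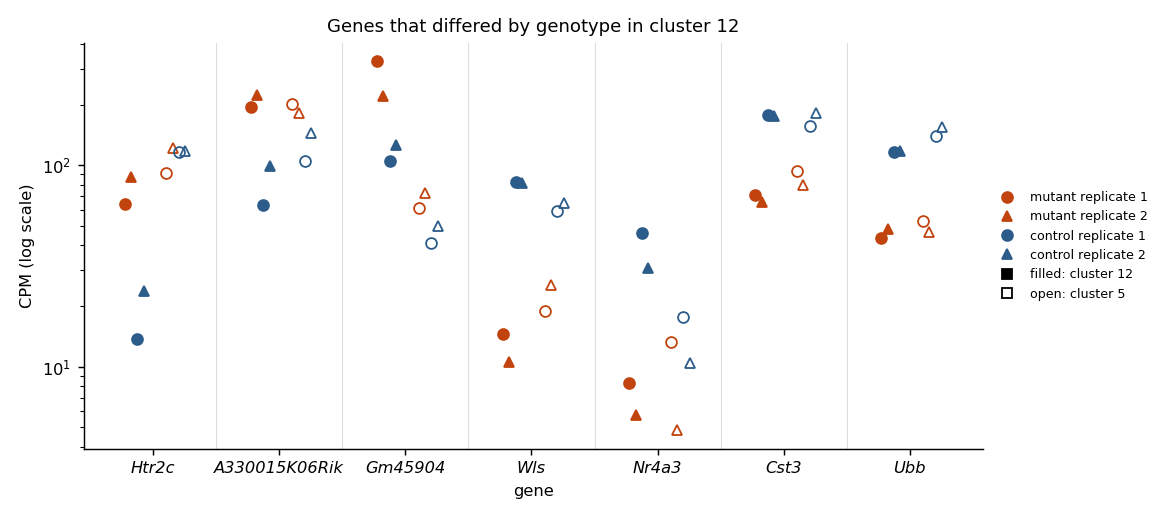
Levels (CPM, log axis) of the 7 genes that differed by genotype in cluster 12, in each sample of cluster 12 (filled) and of cluster 5 (open), with mutant samples in red-brown and control samples in blue (circle, replicate 1; triangle, replicate 2). Wls shows the widest separation in cluster 12, Htr2c is separated in cluster 12 but not in cluster 5, and Cst3 and Ubb are separated in both.

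The genes with the next smallest p did not pass. Higher in the mutant were Sorcs1 (72.8, 75.0, 27.4 and 35.0 CPM, FDR 0.091), AC121788.1 (25.0, 68.7, 13.7 and 15.1 CPM, FDR 0.12), Nrg1 (FDR 0.12), Frem1 (FDR 0.12) and AC149090.1 (FDR 0.13). Lower were Pcsk1n (FDR 0.060), the bicarbonate transporter gene Slc4a4 (FDR 0.067), Itm2b (FDR 0.069), Rock2 (FDR 0.076) and Mat2a (FDR 0.076). Nrg1, the ErbB4 ligand neuregulin 1, had a log2 fold change of 0.99 (SE 0.21).

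None of the genes that define inhibitory neurons was called. Of the neurogliaform markers 6 of the 7 tested were below 0 (median -0.20), none with an unadjusted p below 0.05, and of the caudal eminence markers 4 of 4 were (median -0.35), Adarb2 and Prox1 with an unadjusted p below 0.05. Of all 9523 genes tested, 4800 were below 0. In edgeR, 4.14% of all genes tested were higher and 4.67% lower at an unadjusted p below 0.05. Over the 11 GABA neuron markers the median log2 fold change was 0.09, beside -0.00 over all genes tested. Gad1 differed by -0.17 (SE 0.16), Gad2 by 0.09 (SE 0.15) and Erbb4 by 0.10 (SE 0.14). No gene was called among the 13 tested genes for GABA-A receptors and gephyrin (median 0.01), the 15 glutamate receptor genes (median 0.18), the 19 potassium channel genes (median 0.10), the 19 neurexins and partners (median 0.02) or the 16 interneuron transcription factors (median -0.03). Gabrd (log2 fold change -0.99, FDR 0.17) was the only GABA-A gene with an unadjusted p below 0.05. Of the 4 tested neuropeptide genes, Cck (-0.58), Npy (-0.68) and Pnoc (-0.55) had values below 0 and Sst (1.34) above it. All 4 had an unadjusted p below 0.05, and none was called (FDR 0.40 to 0.49).

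Lists of genes under Wnt control gave few values in this cluster. Only 2 of 18 Wnt ligand genes and 4 of 14 beta-catenin targets and effectors had enough counts for the test, with median log2 fold changes of 0.00 and -0.24, and none was called. Axin2, a direct target of beta-catenin, was at 14.6, 8.65, 3.43 and 6.35 CPM, and Lef1 at 6.24, 0.481, 3.43 and 0.794 CPM, both below the count needed for testing. Of the immediate early genes 4 of 13 were tested, with 1 called (Nr4a3), and Fos was counted at 1, 10, 14 and 14 UMIs (log2 fold change -1.84, FDR 0.35). Of the 11 tested modulatory receptor genes, 1 was called (Htr2c), and of all 9523 genes tested 7 were (0.0735%).

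Whether the genotype acted differently in cluster 12 than in cluster 5 was tested with both clusters of each mouse in 1 model. Of 13450 genes, 16 differed in the positive (0.119%) and 15 in the negative direction (0.112%), 0.23% in all. Of the called genes, 14 in each direction had within-mouse ratios that did not overlap between genotypes. The share of all 13450 genes with such ratios was not counted, so these numbers add no support to the calls. For the levels in cluster 12 alone, 39.2% of the 9523 genes tested did not overlap. In the positive direction, beside Htr2c, were AC121788.1 (25.0, 68.7, 13.7 and 15.1 CPM in cluster 12, difference 2.77, SE 0.32), Cpne5, the prolactin receptor gene Prlr (31.2, 65.9, 22.3 and 50.8 CPM), Sst, Ldb2, Fyb2, Enpp2 and Sorcs1, with differences of 1.21 to 1.79 on the log2 scale. Gm11728 was called too, from 0, 23, 0 and 0 UMIs in cluster 12, so its difference has no defined size. The Sst difference (1.73, SE 0.41, FDR 0.0081) rested on 10, 37, 3 and 11 UMIs in cluster 12. Sst was detected there in a median of 8.88% of nuclei, beside 6.82% of oligodendrocytes. In cluster 12 itself Sst did not pass (FDR 0.40).

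In the negative direction, beside Wls, were among others Slc1a2, Slc4a4, Gja1, Plpp3, Mertk, Daam2, Rorb, Rmst and Dsc2. The first 5 of these are known from astrocytes, among them the glutamate transporter gene Slc1a2 and the gap junction gene Gja1. Slc1a2 was at 43.7, 96.2, 94.3 and 225 CPM in cluster 12 and at 76.2, 142, 85.0 and 98.9 CPM in cluster 5, and 1 nucleus of control replicate 2 held 111 of the 283 Slc1a2 UMIs of that sample. More than 1 UMI of the 5 astrocyte markers was present in 0.917, 5.08, 3.70 and 7.08% of the cluster 12 nuclei. Without those nuclei, an alternative chosen after seeing the data, 16 genes remained positive and 4 negative, of which 11 and 4 were among the genes first called. The Slc1a2 difference was then 0.57 instead of -1.48, whereas those of Htr2c (2.08) and Wls (-1.46) were close to their values over all nuclei. Without control replicate 2, 13 genes were positive and 4 negative, 1 of the latter among the 15, without mutant replicate 2 the numbers were 6 and 14, and without control replicate 1 they were 7 and 21.

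**Figure D5:**
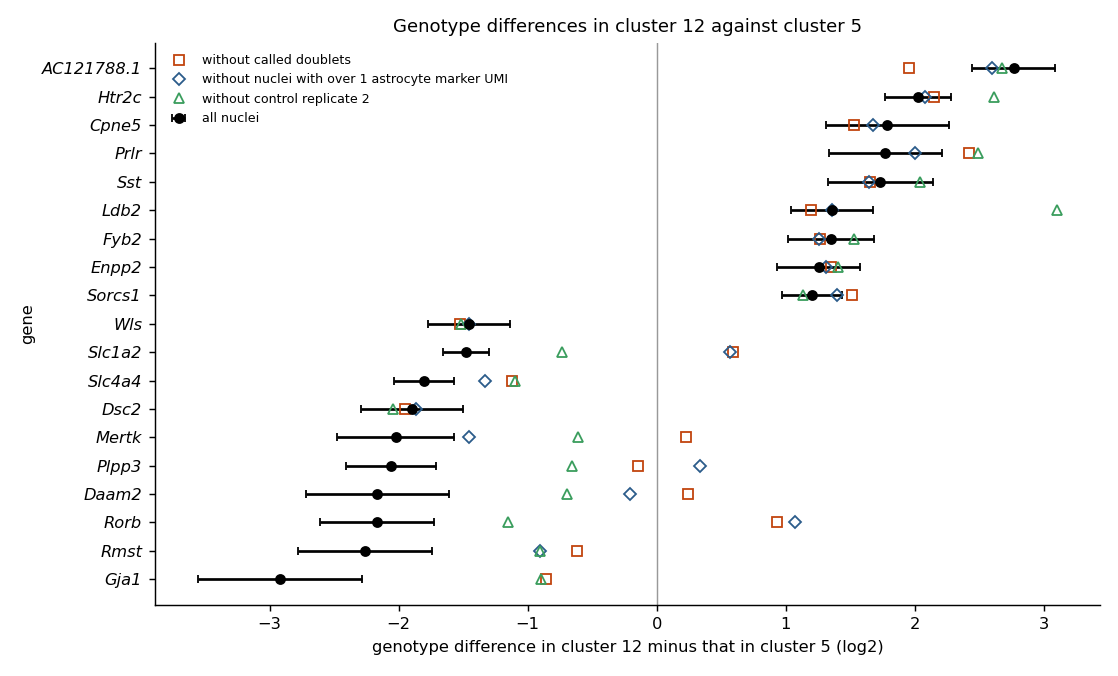
Difference between the genotype effect in cluster 12 and in cluster 5 (log2, edgeR; bars, 1 SE) for 19 genes with all nuclei (black), without called doublets, without nuclei of more than 1 astrocyte marker UMI and without control replicate 2. In the settings drawn, Htr2c, Sorcs1, Dsc2 and Wls stay near their first values, whereas Slc1a2 and Rorb cross 0 when the doublets or the nuclei with astrocyte UMIs are left out. Without mutant replicate 2, which is not drawn, the differences were 1.98 for Htr2c, 1.27 for Sorcs1, -1.23 for Dsc2 and -0.79 for Wls. A point is not drawn where the gene was not tested or the remaining control sample had no UMI in cluster 12.

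Genes that mark cluster 5 were followed in cluster 12, because Htr2c, Sst, Sorcs1 and Ldb2 all were higher in cluster 5. Chosen on the control sums, 75 genes had at least 50 CPM in cluster 5 and a level at least 4-fold lower in cluster 12. In cluster 12 they summed to 3145, 4120, 3271 and 3369 CPM, which overlapped between genotypes and was 12.3, 15.5, 11.9 and 13.1% of their sum in cluster 5. The median log2 fold change of the 57 tested was 0.49. Chosen on the mutant sums instead, 65 genes had a median of 0.05 over the 47 tested. A choice on 1 genotype favours low values of that genotype in cluster 12, so neither median carries a test.

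Bulk tissue was then examined for the leading genes of cluster 12. The bulk libraries held 56002400 to 79576200 estimated read counts. Of the 30 leading genes, 26 were tested, and none was called at more than 3-fold and an FDR below 0.05 by edgeR or DESeq2. Of all 20687 genes, edgeR called 45 (0.218%, 0.0193% higher and 0.198% lower). DESeq2 called 69 higher and 56 lower. At an unadjusted p below 0.05, 5 of the 26 were higher and 4 lower, beside 8.86 and 9.94% of all genes tested. The median log2 fold change of the 26 was 0.04, against 0.01 over all genes. Tacr1 was at 4.78 and 4.15 CPM in the mutant and 2.85 and 3.31 CPM in the control libraries (log2 fold change 0.53, FDR 0.20), and Lhx6 at 27.4 and 23.6 against 19.5 and 16.9 CPM (0.49, FDR 0.13). Nos1 was at 173 and 167 against 184 and 178 CPM (-0.09, FDR 0.44), and Hapln1 at 35.5 and 35.9 against 36.1 and 38.9 CPM (-0.07, FDR 0.63). Tenm1 was lower in the mutant libraries, at 23.3 and 18.8 against 30.9 and 39.7 CPM (-0.75, FDR 0.11), without passing, whereas in cluster 12 nuclei it differed by 0.01 (SE 0.14). In bulk tissue a smaller number of cells and less RNA per cell cannot be told apart, and each of these genes was also counted in other cell types.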

How the data were processed

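Nuclei of 2 mutant and 2 control mice were profiled by droplet snRNAseq. UMI counts per gene and nucleus were made by the authors with Cell Ranger 3.1.0 on a pre-mRNA version of mm10, and the deposited annotation of nuclei came from clustering in Monocle 3 after batch correction. Expected counts of the bulk libraries were made by the authors with RSEM 1.3.0 and Bowtie2 2.2.9, and were rounded here. Deposited labels gave the groups, and UMIs of cluster 12 were summed per mouse. edgeR 4.0.16 (TMM, filterByExpr, quasi-likelihood F test) in R 4.3.3 tested genotype, with calls at more than 2-fold in nuclei and 3-fold in bulk and an FDR below 0.05. The interaction model held mouse, cluster and cluster by genotype. An exact permutation test of 2 against 2 mice cannot go below p = 0.33, so none is given. DESeq2 1.42.0, other scalings, no filter, a replicate block, leaving out each sample, and leaving out nuclei were alternatives. Doublets were called with Scrublet in Scanpy 1.11.5 and kept in the first analysis. Leading genes had at least 50 CPM in the controls, and the 10 of highest ratio were named, with the 8 highest and 8 lowest ratios against clusters 5 and 18, list genes that led or passed, and up to 10 called genes per direction outside the control range, or else the 5 smallest p. The named members and lists were chosen with earlier results of these data known. In simulated counts for cluster 12, 68% of 2.5-fold and 93.5% of 4-fold changes were recovered over 9523 genes. Positions are from GENCODE on GRCm38. Some genes that met these rules are not reported here.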

Additional observations from a re-analysis of the deposited data

Results flagged for a closer look

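These 19 genes are given because the genotype difference in cluster 12 differed from that in cluster 5 by more than 2-fold in the edgeR interaction test at an FDR below 0.05, with the mutant ratios of the clusters outside the control range. Values are the difference in cluster 12 minus that in cluster 5, on the log2 scale. Above 0 were AC121788.1 at 2.77, Htr2c at 2.02, Cpne5 at 1.79, Prlr at 1.77, Sst at 1.73, Ldb2 at 1.36, Fyb2 at 1.35, Enpp2 at 1.26 and Sorcs1 at 1.21. Below 0 were Gja1 at -2.92, Rmst at -2.26, Rorb at -2.17, Daam2 at -2.16, Plpp3 at -2.06, Mertk at -2.02, Dsc2 at -1.90, Slc4a4 at -1.80, Slc1a2 at -1.48 and Wls at -1.46. Htr2c kept its call in 7 of 7 alternatives, and AC121788.1 and Slc4a4 in 6 of 7. Cpne5 and Fyb2 kept theirs in 1 of 7.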

How the results depend on the processing

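Genes called higher and lower in cluster 12, 3 and 4 over all nuclei, numbered 22 and 39 without the filter on low counts, 2 and 2 with DESeq2, and 0 and 1 both without called doublets and without nuclei of more than 1 astrocyte marker UMI, the last an alternative chosen after seeing the data. Leaving out each sample gave 4 to 99 higher and 16 to 40 lower, with a lone sample assumed to vary like the other group. The highest count of higher genes came without control replicate 2, with 43 higher and 40 lower without mutant replicate 1, 5 and 16 without mutant replicate 2, and 4 and 23 without control replicate 1. Replicate numbers were shared between genotypes, but with 2 pairs they mark no known pairing (correlation of same-numbered deviations 0.168 in cluster 12 and 0.0644 in bulk, and 0.245 and 0.285 over genes of at least 50 CPM), and a replicate block gave 3 higher and 9 lower.

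Against cluster 5, 16 and 15 genes were called, and 6 to 15 and 4 to 21 with each sample left out. Without called doublets these were 10 and 5, and without the nuclei with astrocyte UMIs 16 and 4, both chosen after seeing the data. Signs reversed without doublets for Rorb (0.93), Daam2 (0.24), Mertk (0.23) and Slc1a2 (0.59), and without the nuclei with astrocyte UMIs for Rorb (1.07), Plpp3 (0.34) and Slc1a2 (0.57). The causes of these changes were not tested. The number of cluster 12 nuclei reversed to -0.20 over inhibitory clusters 5, 12 and 18. In bulk, the median of the leading genes was 0.22 for 15 genes, 0.0090 for 60 genes, and 0.047 to 0.12 with each library left out.

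After thinning to 1500 UMIs the share of nuclei with a UMI was 52.5% for Gad1, 61.0% for Gad2, 14.4% for Lhx6, 28.4% for Adarb2, 18.6% for Lamp5, 21.0% for Nos1, 8.57% for Npy, 47.6% for Reln, 17.1% for Id2, 40.3% for Hapln1, 15.4% for Tacr1, 3.15% for Ndnf and 3.14% for Sst, since fewer UMIs per nucleus were read.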
